A study of Mus musculus with 18 samples.

Results

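Genes of the AP-1 transcription factor family and its immediate early neighbours were followed through RNA sequencing of mouse NIH3T3 embryonic fibroblasts. In all, 10 genes were taken by name: Fos, Fosb, Fosl1, Fosl2, Jun, Junb, Jund, Egr1, Atf3 and Ier3. All 10 were among the 24062 genes counted, and all 10 were among the 12140 that passed the filter on low counts. The lines studied were the parental NIH3T3 cells, labelled wild-type and called WT here, and the NIH3T3-mCherry-mTRIM21 cells, called TRIM21 here, which carry mouse TRIM21 joined to the fluorescent protein mCherry. TRIM21 is a cytosolic Fc receptor for antibodies that also acts as a ubiquitin ligase. Cells of each line were electroporated (1400 V, 20 ms, 2 pulses) with 7.5 µg of the IgG antibody ab18447, with bovine serum albumin (BSA), or with PBS alone, and RNA was taken 16 h later. Each of the 6 groups held 3 samples, whose titles carry the numbers 10, 11 and 14, and the labels do not say what a number stands for. Both lines grew in medium with calf serum. The introduced line is a single derived line without a line carrying mCherry alone, so its insertion, its selection and TRIM21 itself cannot be told apart. The labels do not say whether samples of a group were separate cultures, so p-values measure the spread between these samples.

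AP-1 is a dimer of basic leucine zipper proteins, in which a Jun protein pairs with a Fos protein, another Jun or an ATF protein and binds DNA at the AP-1 site or the related cyclic AMP response element (CRE). In fibroblasts, serum, growth factors and stress switch on Fos, Fosb, Junb, Egr1, Atf3 and Ier3 within minutes through MAP kinases and serum response factor, and their mRNAs decay soon after. Fosl1 (Fra-1), Fosl2 (Fra-2) and Jund belong to the slower or steadier part of the family. Samples taken 16 h after the pulse lie well past that first wave.

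The libraries held 19509017 to 29766433 gene counts. Replicates of a group differed by more than sampling noise: a chi-square test of their counts gave 11.01 to 85.9 for each degree of freedom. Trim21 matched the labels, at 984 to 1188 CPM (counts scaled to 1e+06 gene counts per library) in the 9 TRIM21 samples and 6.54 to 9.73 CPM in the 9 WT samples. All 10 fibroblast markers exceeded 1 CPM in every sample. Their summed level was 19298 to 34320 CPM in the TRIM21 line and 29024 to 39050 CPM in WT. The 5 leukocyte markers found in the files summed to 12.4 to 16.7 CPM and 12.4 to 15.9 CPM, and those of epithelium, endothelium and skeletal muscle to at most 2.56 CPM, with Krt5, Myod1, Myog and Myf5 at 0 throughout.

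Promoter sequence was available for 8 of the 10 genes, and 3 stretches are shown because they hold a short element bound by CREB, ATF or AP-1 dimers. Each is the 150 bases before the RefSeq start site in GRCm38.p6, 5′ to 3′ on the gene's strand, with the element in capitals. The Fos stretch lies at chr12:85473740-85473889 on the plus strand, the Jun stretch at chr4:95052223-95052372 on the minus strand and the Atf3 stretch at chr1:191183334-191183483 on the minus strand.
Fos: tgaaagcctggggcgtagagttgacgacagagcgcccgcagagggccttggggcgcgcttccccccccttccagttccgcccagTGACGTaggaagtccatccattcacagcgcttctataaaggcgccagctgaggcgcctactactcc
Jun: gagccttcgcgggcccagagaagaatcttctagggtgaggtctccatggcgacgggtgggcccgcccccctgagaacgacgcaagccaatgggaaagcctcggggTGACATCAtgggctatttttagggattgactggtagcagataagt
Atf3: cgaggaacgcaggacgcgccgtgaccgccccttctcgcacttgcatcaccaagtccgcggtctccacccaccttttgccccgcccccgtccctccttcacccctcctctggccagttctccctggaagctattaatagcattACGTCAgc
The Fos stretch holds the CRE core TGACGT, 66 to 61 bases before the start, and the Atf3 stretch holds it in reverse, ACGTCA, 8 to 3 bases before the start. Jun holds TGACATCA, the variant AP-1 site of the Jun promoter, 45 to 38 bases before its start. The Atf3 start used by RefSeq lies 34706 bases inside the longest GENCODE gene model, and that of Fosl2 lies 671 bases inside its model. The Jund start lies 1210 bases upstream of the GENCODE gene, so its window does not adjoin that gene model. Searched on both strands in the 250 bases before 32851 RefSeq starts, TGACGT occurred in 6.47% of windows and TGACATCA in 2.93%. The full CRE TGACGTCA, which contains the core, occurred in 1.55%, the AP-1 site TGANTCA in 6.75% and the CArG box bound by serum response factor in 1.47%. None of these last 3 letter patterns was found in the windows of the 8 genes. Sites farther upstream lay outside the search, and Fosl1 and Egr1 had no window.

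Levels differed widely among the 10 genes. To compare genes of different length, CPM was divided by the length of all annotated exons in kilobases (kb), averaged over the 18 samples. Fosl1 was highest at 58.3 ± 12.3 CPM per kb (SD, n = 18), above 93.6% of tested genes. It lies at chr19:5447547-5455946 (GRCm38). Jun (chr4:95049034-95052222) at 40.0 ± 4.83 and Fosl2 (chr5:32135801-32157842) at 39.2 ± 4.67 CPM per kb followed, and Jun exceeded Fosl2 in 9 of the 18 samples. Per kb of the longest transcript Fosl2 had 58.03 and Jun 39.97 CPM, with Fosl2 higher in 18 of 18 samples, so the order of this pair depends on the length used. Fosl1 exceeded Fosl2 in 16 of 18 samples per kb of exon. Per kb of the longest transcript it did so in 11 of 18, with means of 63.5 and 58.03 CPM. Egr1 (chr18:34859823-34864984), a zinc finger factor that shares upstream signals with AP-1, had 30.8 ± 3.29 CPM per kb. Ier3 (chr17:35821684-35822923), a stress-induced regulator of cell survival, had 25.9 ± 11.1 CPM per kb, and Egr1 exceeded it in 12 of 18 samples. Jund (chr8:70698949-70700616) stood at 8.95 ± 2.39 and Junb (chr8:84974484-84978718) at 7.002 ± 2.94 CPM per kb, with Jund higher in 15 of 18 samples. Per kb of the longest transcript they had 8.95 and 8.91 CPM, with Jund higher in 11 of 18.

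Fos (chr12:85473890-85477273), at 1.47 ± 0.283 CPM per kb, was lower than every one of the preceding genes, and Atf3 (chr1:191170296-191218039) reached 0.839 ± 0.212. Fosb (chr7:19302696-19310051) was lowest at 0.239 ± 0.0779 CPM per kb, above 5.32% of tested genes. In all 18 samples Fos exceeded Atf3 and Atf3 exceeded Fosb. The 3 genes were counted from few reads: 45 to 103 per library for Fos, 16 to 61 for Atf3 and 19 to 69 for Fosb, against 5225 to 13225 for Fosl2. Of the 10 genes, 5 overlap a gene on the opposite strand: Fosl1 (Ccdc85b), Jun (the antisense RNA Junos), Junb (Prdx2), Jund (Gm11175) and Atf3 (Gm24748). The strand setting of the counting is not given in the sources used here, so reads of these partners cannot be told apart from theirs.

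**Figure D1:**
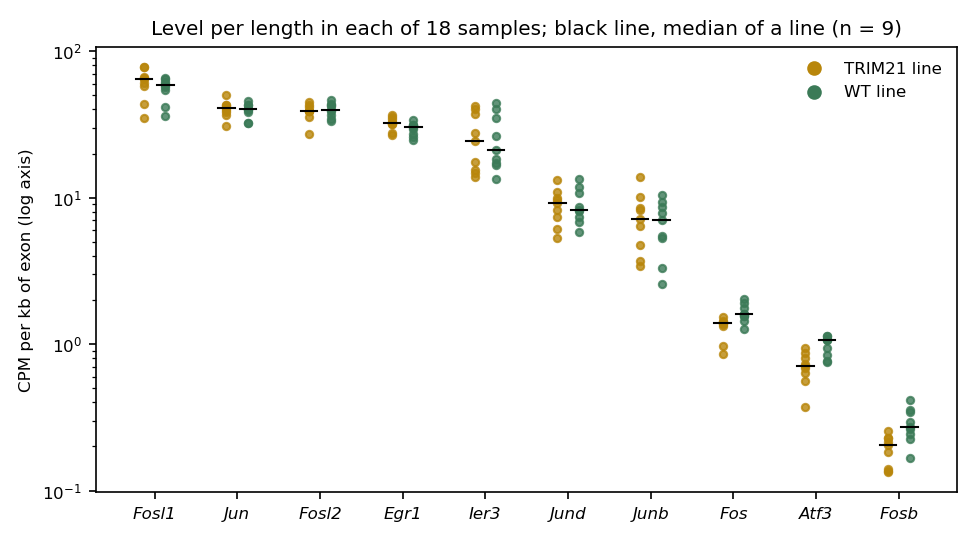
Level per length of the 10 genes on a log axis (CPM per kb of exon), ordered by the mean over 18 samples; points are samples of the TRIM21 or WT line and black lines the medians of the 9 samples of a line. Fosl1 has the highest mean and exceeds Fosl2 in 16 of 18 samples, and Fos, Atf3 and Fosb lie below the other 7 genes in every sample.

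Within the Fos family, Fosl1 and Fosl2 made up nearly all of the length-corrected signal, with 58.2% ± 7.15 and 40.1% ± 7.02 (SD, n = 18). Fos contributed 1.49% ± 0.257 and Fosb 0.246% ± 0.0889. Dividing by the longest transcript in place of all exons brought the leading pair closer, to 51.0% for Fosl1 and 47.4% for Fosl2. In the Jun family, Jun held 72.1% ± 4.78, Jund 15.9% ± 2.57 and Junb 12.04% ± 3.30. The lines had similar Jun shares, 72.0% ± 5.35 in TRIM21 and 72.2% ± 4.48 in WT (SD, n = 9).

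The lines were compared first, averaged over the 3 treatments, to ask whether cells with the introduced TRIM21 differ in these genes. None of the 10 genes passed the threshold (edgeR quasi-likelihood test, adjusted p under 0.05), where 6.18% of all tested genes did (750, of which 169, or 1.39%, higher and 581, or 4.79%, lower in TRIM21). At an unadjusted p under 0.05 there were 3 of the 10, Atf3, Fosb and Fos, all lower in the TRIM21 line, against 21.4% of all genes. The samples of the lines overlapped for all 10 genes, while 1.91% of all genes had no overlap. Limma-voom also called 0 of the 10, and the DESeq2 Wald test called 1, Atf3, and 8.57% of all genes. With an offset for transcript GC content, added after seeing the data, edgeR called 2, Fosb (adjusted p = 0.0480) and Atf3 (0.0369), and 9.56% of all genes. With the number in the sample titles as a block, edgeR called 3, Fos, Fosb and Atf3, and 12% of all genes. Within single treatments 0 of the 10 were called, against 1.71% of genes after PBS, 0.848% after BSA and 0.774% after IgG. The median log2 fold change of the 10 was -0.01, beside 0.01 over all genes.

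Atf3, a stress-induced ATF factor that dimerizes with Jun proteins, came closest. In the TRIM21 line it measured 1.57, 0.80 and 1.36 CPM after PBS (numbers 10, 11 and 14), 2.02, 1.21 and 1.47 after BSA, and 1.74, 1.88 and 1.52 after IgG. The WT samples measured 1.65, 2.43 and 2.44 CPM after PBS, 2.31, 2.03 and 2.30 after BSA, and 1.63, 2.33 and 1.82 after IgG. In all, 6 WT samples lay above every TRIM21 sample and 6 TRIM21 samples lay below every WT sample, while the remaining ones overlapped. TRIM21 was lower in 8 of the 9 pairs matched by treatment and number. The log2 fold change was -0.48 (SE 0.14, 95% interval -0.79 to -0.18), with an adjusted p of 0.0527 by edgeR. After PBS alone it was -0.79 (SE 0.25), with an adjusted p of 0.125 and non-overlapping samples, as had 15.4% of all genes. In bulk RNA, fewer cells with the transcript and less of it per cell cannot be told apart.

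Fosb, whose mRNA was the lowest of the Fos family here, measured 1.28, 1.35 and 1.43 CPM in TRIM21 cells after PBS, 0.83, 0.85 and 1.602 after BSA, and 0.87, 1.14 and 1.44 after IgG. In WT it measured 1.65, 1.82 and 2.16 CPM, 1.05, 1.70 and 2.60, and 1.39, 1.52 and 2.22 in the same order. TRIM21 was lower in 9 of 9 matched pairs, yet the samples of the lines overlapped between 1.05 and 1.602 CPM. The log2 fold change was -0.57 (SE 0.18, 95% interval -0.96 to -0.19), which corresponds to 0.672 times the WT level, with an adjusted p of 0.0762 by edgeR.

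Fos, the founding member of the family, measured 3.61, 2.30 and 3.29 CPM in TRIM21 cells after PBS, 3.34, 2.01 and 3.24 after BSA, and 3.39, 3.12 and 3.27 after IgG. In WT the values were 4.496, 3.65 and 3.40 CPM, 4.14, 3.68 and 3.801, and 4.79, 2.99 and 3.795. For Fos, 7 WT samples exceeded all TRIM21 samples, and TRIM21 was lower in 8 of 9 pairs. The log2 fold change was -0.33 (SE 0.12), with an adjusted p of 0.126 by edgeR. After BSA the samples of the lines did not overlap for Fos or Atf3, as for 16.8% of all genes. After IgG they overlapped for all 10 genes, where 19.8% of genes did not overlap. The gap for Atf3 after BSA was very small, from 2.025 CPM in TRIM21 number 10 (51 reads) to 2.026 CPM in WT number 11 (44 reads).

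Single samples changed the call for Atf3 and Fosb but not for Fos. Atf3 passed in 5 of the 18 fits that left out 1 sample: without TRIM21 PBS number 10 (adjusted p = 0.0379, edgeR), TRIM21 PBS number 14 (0.0407), TRIM21 BSA number 10 (0.0302), WT PBS number 10 (0.0276) or WT IgG number 10 (0.0482). Fosb passed without TRIM21 BSA number 14 (adjusted p = 0.0284) or WT BSA number 10 (0.0325), and Fos in none of the 18. Over all 27 alternatives the adjusted p ranged from 0.0237 to 0.109 for Atf3, from 0.00294 to 0.194 for Fosb and from 0.0126 to 0.228 for Fos. The log2 fold changes stayed negative, between -0.56 and -0.42, -0.71 and -0.45, and -0.39 and -0.27.

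Averaged over the treatments, the 7 more abundant genes had smaller differences between the lines. Egr1 was 144 ± 14.6 CPM in TRIM21 and 132 ± 12.9 CPM in WT (SD, n = 9), a log2 fold change of 0.13 with a 95% interval of -0.03 to 0.28. Fosl1 measured 124 ± 28.8 and 113 ± 20.8 CPM, with an interval of -0.16 to 0.42 on the log2 scale. Its samples after PBS did not overlap, at 131, 158 and 135 CPM in TRIM21 against 124, 121 and 73.1 CPM in WT. The same held after PBS for Atf3 and Fosb, and for 15.4% of all genes. Fosl2 (374 ± 49.7 and 385 ± 42.6 CPM) and Jun (129 ± 16.8 and 126 ± 14.7 CPM) had intervals of -0.21 to 0.13 and -0.13 to 0.21. Over the 18 samples Fosl2 ranged from 261 CPM (TRIM21 PBS number 11) to 450 CPM (WT IgG number 14), with a median of 379. Jun ranged from 98.9 to 161 CPM with a median of 129, and Egr1 from 112 to 165 CPM with a median of 141. For none of Fosl2, Jun and Egr1 did the highest sample exceed the lowest by more than 1.72 times, against 5.32 times for Junb and 3.31 times for Ier3. Fosl1 had a wider range than these 3, from 71.3 to 158 CPM. For Junb (-0.40 to 0.69), Jund (-0.35 to 0.30) and Ier3 (-0.59 to 0.60) the intervals were wider. The adjusted p of these 7 genes ranged from 0.327 for Egr1 to 0.998 for Ier3 (edgeR).

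**Figure D2:**
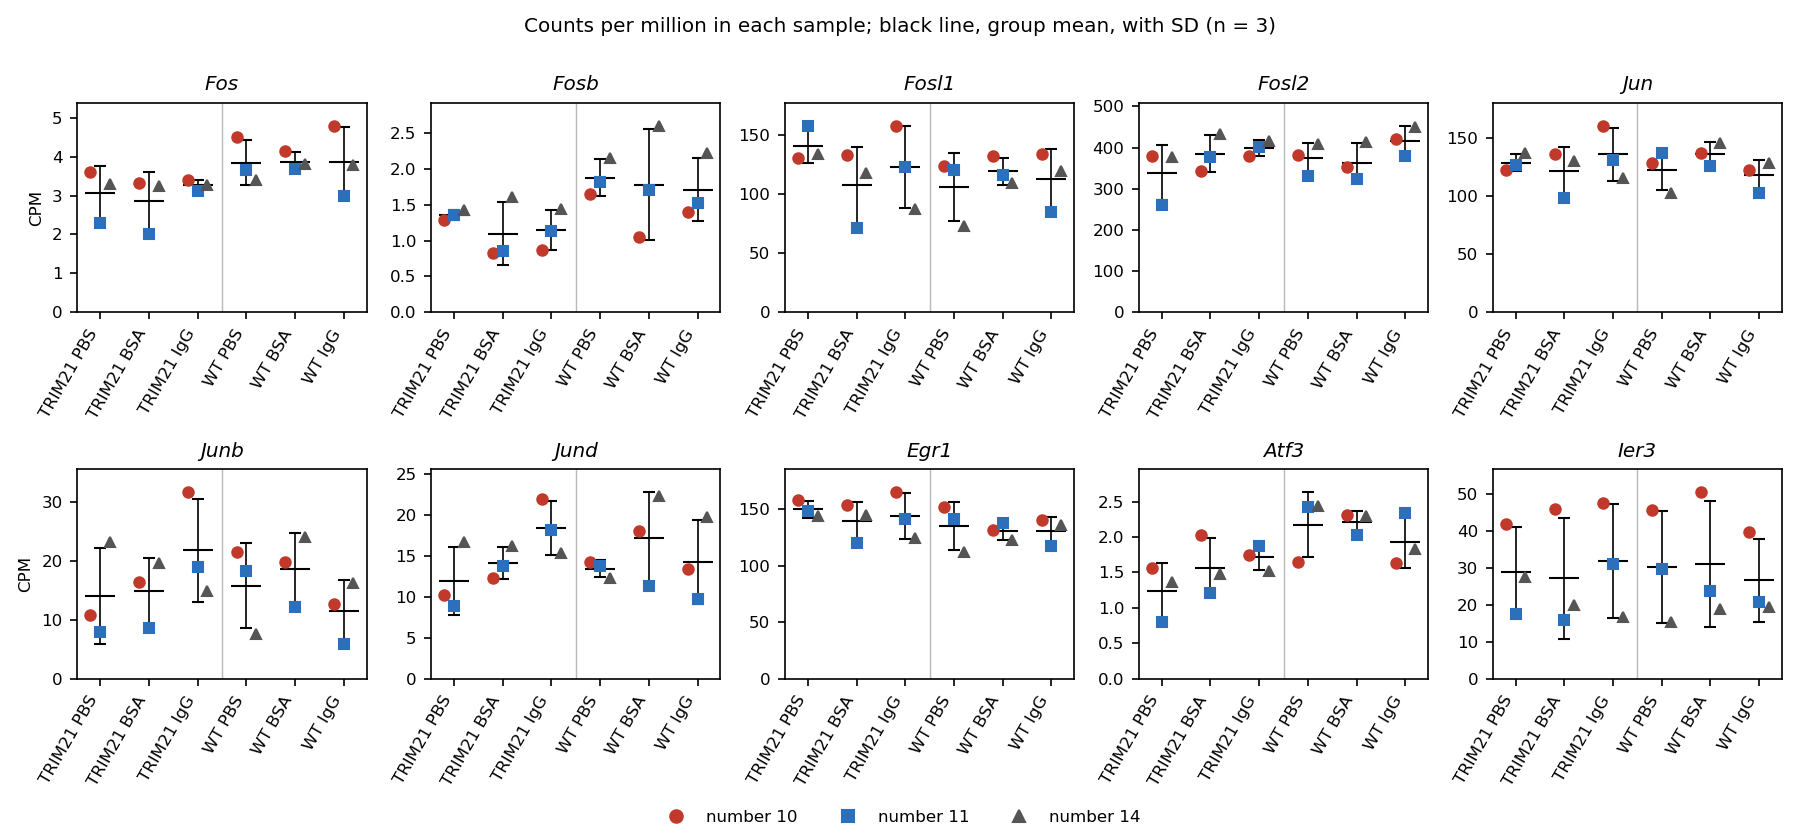
CPM of the 10 genes in each of the 18 samples, by line and treatment; the marker gives the number in the sample's title, and black lines and bars the group mean and SD (n = 3). The 2 lines overlap for all 10 genes, and Ier3 of number 10 (red) is the highest of its group in 6 of 6 groups.

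The treatments were compared to ask whether an electroporated antibody or protein moved these genes, with PBS as the control for the pulse. None of the 10 passed the test in any of the 9 comparisons of treatments or in the 3 tests of a difference between lines, and neither did any other gene (0 of 12140 in each by edgeR, a background of 0%). Limma-voom and the DESeq2 Wald test also called 0 of the 10 in each of the 12. Among all genes, the DESeq2 Wald test called 5 (0.0412%) for IgG against PBS averaged over lines. Averaged over the lines, the log2 fold changes of the 10 genes ranged from -0.19 to 0.35 for IgG against PBS, from -0.07 to 0.12 for IgG against BSA and from -0.17 to 0.29 for BSA against PBS. No gene of the 10 had an unadjusted p under 0.05 in these 3, where 5.52%, 1.03% and 0.972% of all genes did.

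For the fast-responding genes, intervals of IgG against PBS were as follows. The 95% interval of the log2 fold change was -0.27 to 0.36 for Fos, -0.67 to 0.29 for Fosb, -0.58 to 0.76 for Junb, -0.24 to 0.13 for Egr1, -0.24 to 0.51 for Atf3 and -0.75 to 0.71 for Ier3. The interval of Fosl2 was -0.01 to 0.40, with an unadjusted p of 0.0611 that became 0.846 after adjustment (edgeR).

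Jund had the smallest p of the 10 in a treatment comparison, for IgG against PBS in the TRIM21 line. Its level was 10.3, 8.90 and 16.7 CPM after PBS, 12.3, 13.8 and 16.2 after BSA, and 22.0, 18.2 and 15.4 after IgG. In all, 2 of the 3 IgG samples lay above the PBS samples, and the groups overlapped between 15.4 and 16.7 CPM. The log2 fold change was 0.62 (SE 0.27), with an unadjusted p of 0.0323 and an adjusted p of 0.724 by edgeR, in a comparison where 5.61% of genes had an unadjusted p under 0.05. It ranged from 0.46 to 0.96 when any 1 sample was left out, highest without TRIM21 PBS number 14, and was 0.31 under the GC-content offset. In WT, Jund measured 14.3, 13.8 and 12.3 CPM after PBS, 18.04, 11.3 and 22.4 after BSA, and 13.4, 9.69 and 19.8 after IgG, without a common direction.

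Junb, a Jun protein that can restrain Jun activity, had the largest difference between lines in a treatment difference. In TRIM21 cells it measured 10.9, 7.90 and 23.2 CPM after PBS, 16.4, 8.54 and 19.6 after BSA, and 31.6, 19.0 and 14.8 after IgG. In WT cells the values were 21.5, 18.2 and 7.62 CPM, 19.8, 12.2 and 24.0, and 12.6, 5.94 and 16.2. The mean thus went from 14.8 to 21.8 CPM between BSA and IgG in TRIM21 and from 18.7 to 11.6 CPM in WT, with overlapping samples in both lines. The difference between the lines was 1.24 on the log2 scale (SE 0.64, 95% interval -0.10 to 2.58), with an adjusted p of 0.843 by edgeR, and it was 0.80 under the GC-content offset.

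**Figure D3:**
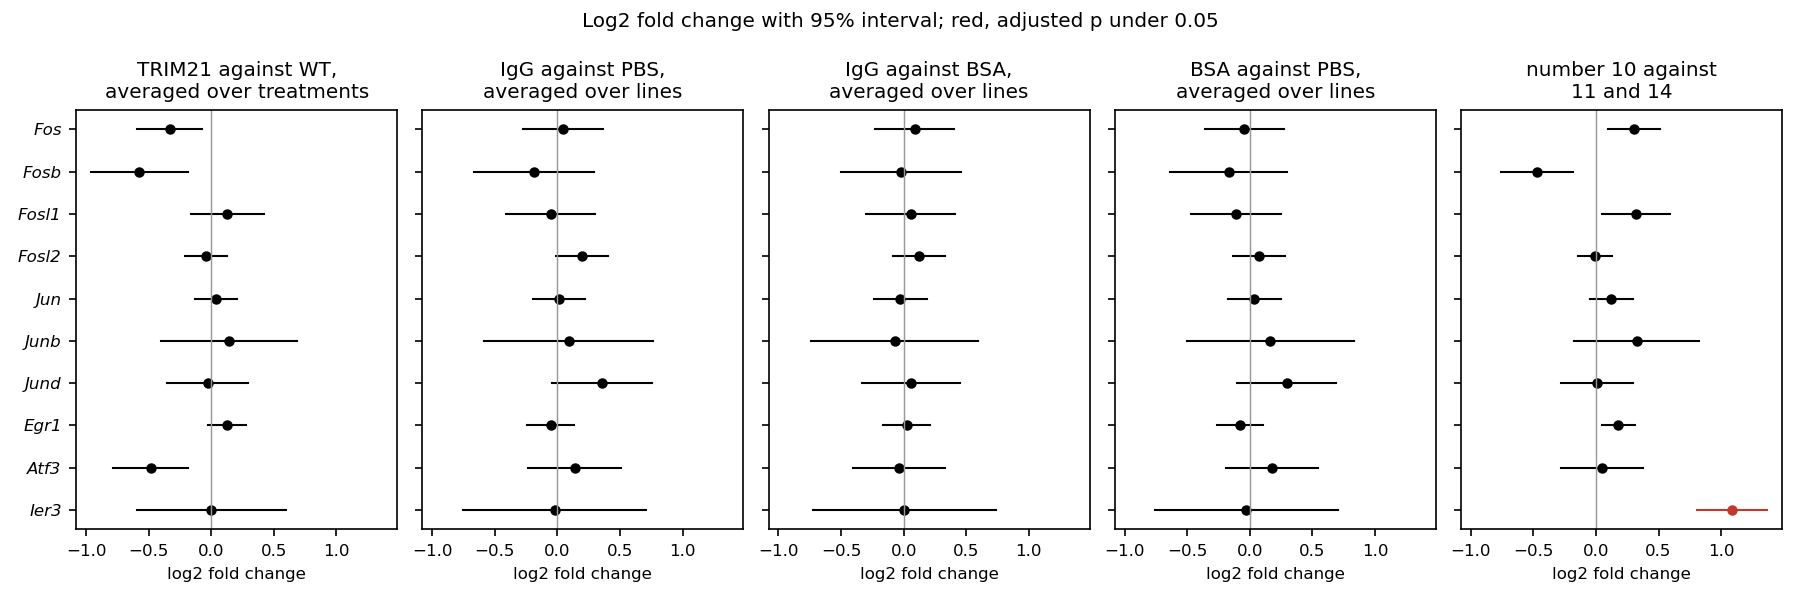
Log2 fold change of each gene (point) with its 95% interval (line) in the line comparison, the 3 treatment comparisons averaged over lines, and the comparison of number 10 with numbers 11 and 14; red marks an adjusted p under 0.05. The only red point is Ier3 in the last panel, at 1.09.

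The numbers in the sample titles, each present once in every group, were compared next. With group and number in the model, Ier3 was higher in number 10 than in 11 and 14 by 1.09 on the log2 scale (SE 0.13, 95% interval 0.81 to 1.37, adjusted p = 0.000186 by edgeR). In TRIM21 cells it measured 41.8, 17.5 and 27.5 CPM after PBS, 45.9, 15.7 and 19.9 after BSA, and 47.5, 31.1 and 16.7 after IgG. In WT cells it measured 45.7, 29.7 and 15.2 CPM, 50.4, 23.8 and 18.8, and 39.6, 20.7 and 19.5. Every number 10 sample, 39.6 to 50.4 CPM, lay above every other sample, and it was 1.86 to 2.57 times the mean of the other two in its group. At an unadjusted p under 0.05 there were 5 of the 10, against 21.2% of all genes. Ier3 was the only one of the 10 called, where 5.51% of all genes were (669, of which 411, or 3.39%, higher and 258, or 2.13%, lower in number 10). It kept an adjusted p of at most 0.00251 when any 1 sample was left out.

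A further 4 of the 10 genes leaned in the comparison of number 10 with the other numbers without passing. Fosb was lowest in number 10 in 6 of 6 groups, with a log2 fold change of -0.47 (SE 0.14, adjusted p = 0.0547 by edgeR). Fos went the other way and was highest in number 10 in 6 of 6 groups, by 0.30 (SE 0.10, adjusted p = 0.0848). Fosl1 (0.32) and Egr1 (0.18) were highest there in 5 of 6 groups, with adjusted p of 0.156 and 0.112. Without TRIM21 PBS number 10, TRIM21 PBS number 14, TRIM21 BSA number 11 or WT PBS number 14, Fosb passed, with adjusted p of 0.0417, 0.0263, 0.0459 and 0.0383. Its adjusted p over all 24 alternatives ranged from 0.0263 to 0.143. The mean log2 deviation of Fosb from its group means was -0.30 in number 10, -0.07 in 11 and 0.36 in 14. Number 14 thus stood farther from the group means than number 10. Numbers 11 and 14 also lay apart for Fosl2 (-0.14 and 0.14), Jund (-0.24 and 0.22) and Junb (-0.43 and 0.16), but were not compared with each other. Under the GC-content offset 5 of the 10 genes passed, with Fos, Fosb, Fosl1 and Egr1 joining Ier3, while 11.6% of all genes passed.

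**Figure D4:**
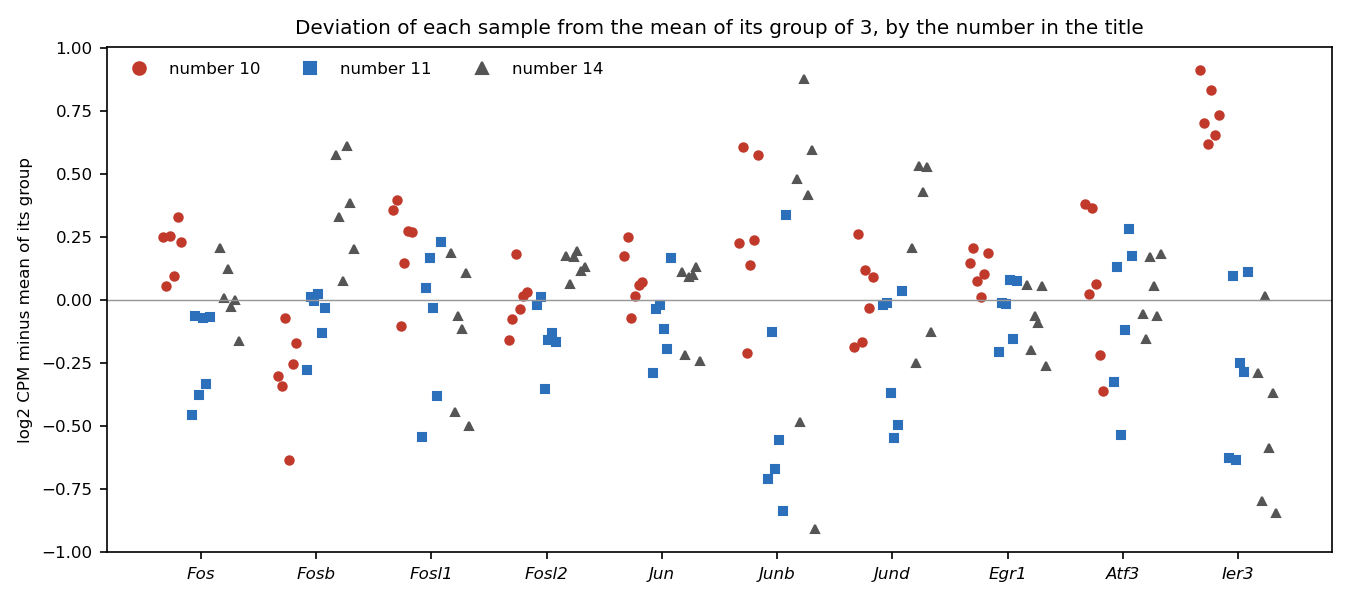
Log2 CPM of each sample minus the mean of its group of 3, for the 10 genes, with the marker giving the number in the title (6 samples per number). For Ier3 the 6 samples of number 10 (red) stand apart above all others, and for Fosb they are the lowest of their groups.

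The genes also differed in how much they varied between samples of a group. The within-group SD of log2 CPM was 0.72 for Ier3 and 0.68 for Junb, larger than that of 99.4% and 99.1% of tested genes, beside a median of 0.18 over all genes. Fosb (0.39), Jund (0.38), Fosl1 (0.35), Atf3 (0.30) and Fos (0.27) were intermediate. Jun (0.19), Fosl2 (0.18) and Egr1 (0.16) lay near the median of all genes.

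The spread of the Jun genes moved with the base composition of the libraries. Each library was given a GC tilt, the slope of its genes' deviations from the group mean on transcript GC content, which ranged from -0.23 to 0.19 on the log2 scale per 10 points of GC. Jund, at 67.1% GC, is richer in GC than all but 0.435% of genes, and Junb has 62.6%. Jun has 55.5%, with 17.9% of genes richer, and lies below Fosl1 (58.5%), Egr1 (57.3%) and Fosb (56.0%). Over the 18 samples the deviation of Junb from its group mean followed the tilt with a Pearson r of 0.86 and a Spearman rho of 0.86. The two-sided exact permutation p over the 46656 reorderings within groups was 0.000836 for r and 0.000965 for rho, and 0.0153 and 0.0179 after adjustment over all tested genes. For Jun, r was 0.82 and rho 0.81 (exact permutation p = 0.000193 and 0.000622, adjusted 0.00758 and 0.0139). For Jund, r was 0.68 and rho 0.74 (exact permutation p = 0.00120 and 0.00176, adjusted 0.0185 and 0.0244). By the same test 14.7% of all genes passed for r and 12.8% for rho, and 4.09%, 5.95% and 13.1% of all genes had a higher r than Junb, Jun and Jund. The tilt is built from the genes' GC content, so genes rich in GC tend to follow it by construction, although these 10 genes were left out of the slope. Without the 2 samples farthest from the median tilt, r was 0.88 for Junb, 0.78 for Jun and 0.82 for Jund. Fosl1 had r of 0.65 and rho of 0.51, with adjusted exact permutation p of 0.108 and 0.228, and the other 6 genes had an adjusted p of at least 0.267. For Egr1 r was 0.52 and for Fosb 0.21, so the order of r among the 10 genes was not that of their GC content.

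With the GC-content offset the within-group SD went from 0.68 to 0.45 for Junb, from 0.38 to 0.24 for Jund and from 0.19 to 0.12 for Jun. For Ier3 it was 0.70 after the offset, near its value before, and its r with the tilt was 0.28. The median over all genes went from 0.18 to 0.16.

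**Figure D5:**
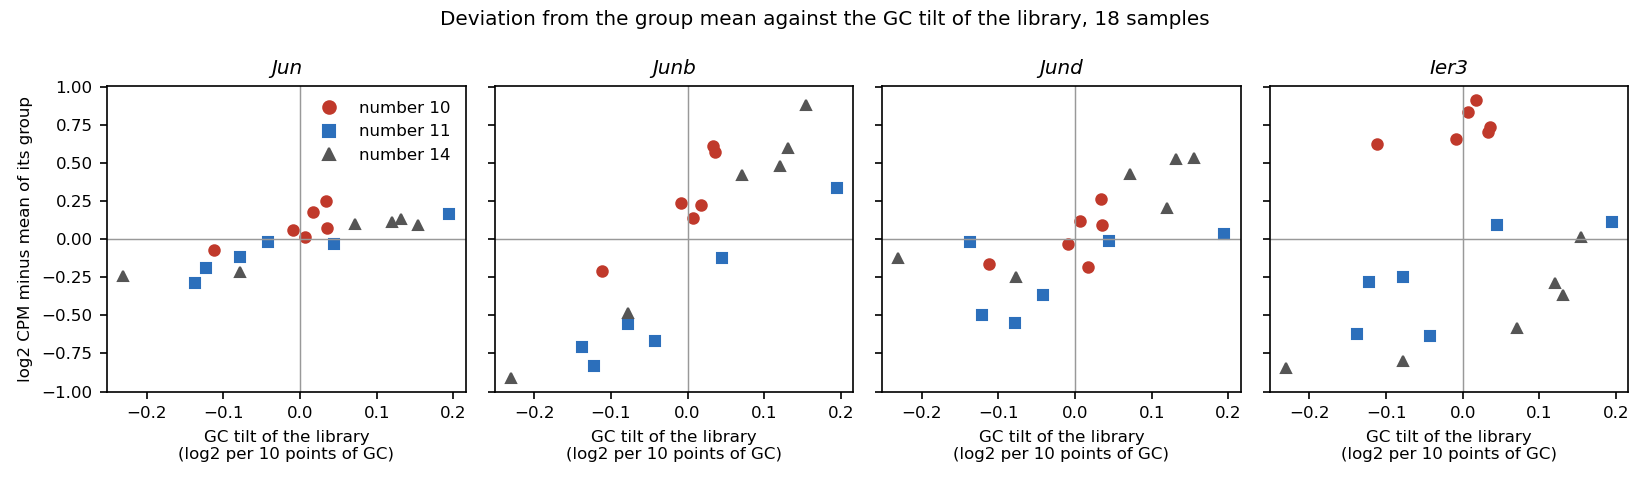
Deviation of Jun, Junb, Jund and Ier3 from the group mean (log2 CPM) against the GC tilt of the library (log2 per 10 points of GC) in 18 samples, with the marker giving the number. The Jun genes rise with the tilt (r of 0.82, 0.86 and 0.68), while number 10 of Ier3 is high in every library. The number 10 libraries have tilts of -0.11 to 0.04 only, within the -0.23 to 0.19 of all libraries.

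Some of the genes varied together within groups. Over the 18 samples, which share the library effects above, the deviations of Fosl1 and Egr1 had a Pearson r of 0.92, those of Fosl1 and Jun 0.89, of Jun and Junb 0.88 and of Junb and Jund 0.81. These pairs ranked the 3 samples alike in 4, 2, 3 and 5 of 6 groups. The lowest r was -0.68, for Fosb and Ier3, which ranked them alike in 0 of 6. The 3 genes whose deviations were most like those of Ier3 were Adm (r = 0.98), which encodes the vasodilator peptide adrenomedullin, Bhlhe40 (0.97), a basic helix-loop-helix repressor tied to the circadian clock, and Spsb1 (0.96). All 3 were also higher in number 10, with log2 fold changes of 0.92, 0.99 and 0.54 and adjusted p of 0.000990, 5.49e-06 and 0.000501 by edgeR. The likeness and the number effect come from the same samples. Junb was most like Snai1 (0.99), which encodes the Snail repressor, Gtpbp6 (0.98) and Pik3r2 (0.98), whose transcripts have 59.8%, 63.8% and 61.4% GC. Fosb was most like Tom1l2 (0.91), Zfp862-ps (0.90) and Sec24d (0.87).

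Other genes of the pathway were followed through 5 lists, beginning with partners. Of 14 other AP-1 and related bZIP factors, 9 were tested, and 1 was called between the lines, lower in TRIM21, where 4.79% of all genes were lower. Maf, a large bZIP factor, was 1.51 ± 0.304 CPM in TRIM21 and 3.39 ± 0.782 CPM in WT (SD, n = 9), a log2 fold change of -1.18 (adjusted p = 4.16e-05, edgeR). The list's median log2 fold change was -0.01. Batf, Batf2, Batf3 and Nrl were among those too low to test.

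Of 42 other immediate early genes, 40 were tested, 2 rose and 3 fell in the TRIM21 line, beside 1.39% and 4.79% of all genes, and the median was 0.00. Gem, a small GTPase, fell by 0.68 on the log2 scale, from 12.9 ± 2.99 CPM in WT to 8.12 ± 2.31 CPM in TRIM21 (adjusted p = 0.0158, edgeR). Sik1, a salt-inducible kinase, fell by 0.46, from 21.7 ± 2.47 to 15.8 ± 2.32 CPM (adjusted p = 0.00279). Myc, a growth-promoting factor, rose by 0.26, from 101 ± 8.06 to 122 ± 12.3 CPM (adjusted p = 0.0185). Rgs2 (-0.26) and Plk2 (0.18), named after their values were seen, complete the 5.

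Upstream, 23 of 24 kinases and factors such as the MAP kinases and Srf were tested and 0 were called between the lines, with a median of 0.04. Among 18 feedback inhibitors of MAP kinase signalling, all tested, 1 fell: Spry1, from 12.7 ± 1.12 to 9.77 ± 1.36 CPM (log2 fold change -0.38, adjusted p = 0.00544, edgeR), and the median was 0.04. Downstream, 19 of 22 genes widely described as AP-1 targets were tested, 1 was called between the lines, higher in TRIM21, and the median was 0.10. Over the 5 lists 8 of the 108 tested genes were called (7.41%), beside 6.18% of all genes. None of the tested genes of the 5 lists was called in a treatment comparison by edgeR, as no gene was in the main fit. Egr4, Areg, Rps6ka1, Mmp1a, Mmp10 and Mmp13 were too low to test.

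With the number, 10 of the 108 tested genes of these lists were called (9.26%, beside 5.51% of all genes), named here after their values were seen. Bhlhe40, Tiparp, Creb5, Elk4 and the MAP kinase phosphatase gene Dusp1 were higher in number 10, by 0.99, 0.27, 1.09, 0.53 and 0.27 on the log2 scale. The orphan receptor genes Nr4a1 and Nr4a2 (both -0.46), Btg2 (-0.30), Zfp36l1 (-0.28) and the ternary complex factor gene Elk1 (-0.20) were lower. Their adjusted p ranged from 5.49e-06 for Bhlhe40 to 0.0410 for Btg2 (edgeR). What the numbers stand for is not stated, and their part in the differences was not tested.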

How the data were processed

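RNA of 18 samples was measured in 6 groups of 3. The deposited values were raw read counts per gene symbol. Per the submitters' processing notes, bcl2fastq 2.19.1.403, FastQC 0.11.5, STAR 2.5.1b, HTSeq 0.6.0, DESeq2 1.6.3 and the mm10 genome were used. The gene annotation and the strand setting of the counting are not given in the sources used here. Reads that fell in no annotated gene made up 13.1% to 18.8% of the reads in genes, in no gene or ambiguous between genes. All lines for reads not given to a gene were left out.

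Counts were analysed with edgeR 4.0.16 (R 4.3.3). The default filterByExpr (count minimum 10, total minimum 15) kept 12140 of 24062 genes, and TMM factors ranged from 0.977 to 1.03. The quasi-likelihood fit used all 18 samples and 1 mean for each group, with Benjamini-Hochberg adjustment over all tested genes and a threshold of 0.05. The comparison of numbers used group and number as factors. A level in CPM is a count per 1e+06 gene counts, TMM-scaled, and log2 CPM used a prior count of 2. Intervals are 95%.

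Alternatives were DESeq2 size factors, the DESeq2 1.42.0 Wald test, no filter on low counts, at least 10 counts in all samples, limma-voom (limma 3.58.1), only the groups compared, the number as a block, and leaving out each sample in turn. A GC-content offset (lowess, span 0.3, GC known for 99.3% of tested genes), with and without the block, was added after seeing the data, as were the alternatives for members outside the line and number comparisons. The procedure was tested on simulated data.

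The 10 genes, the lists, the tests and the rule for names were chosen with earlier results of these data known. The rule names the 10 genes and Trim21, and per list up to 3 genes with an adjusted p under 0.05 between the lines (largest change first) and any called in a treatment comparison. It also gives the 3 genes whose deviations from the group means correlate best with those of the most variable of the 10. Positions are from GENCODE M21 (GRCm38, the assembly of mm10) and promoter sequences from RefSeq, with mouse chromosome 18 left out of the motif search. Single-gene results for 2 listed genes are not reported here.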

Additional observations from a re-analysis of the deposited data

How the results depend on the processing

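Between the lines, the count of the 10 genes called was 0 under DESeq2 size factors, either filter and limma-voom, and 1 under the DESeq2 Wald test (Atf3). It was 2 under the GC-content offset (Fosb and Atf3) and 3 under the replicate block, the block with a minimum of 10 counts and the block with the GC-content offset (Fos, Fosb and Atf3). All tested genes called between the lines numbered 750, against 1462 with the block, 1251 with the block and the minimum, 1160 with the GC-content offset and 2365 with the offset and the block (19.5% of tested genes). After PBS, 2 of the 10 (Fosl1 and Atf3) and 16.4% of all genes passed under the GC-content offset with the block. Between numbers, 2 passed with a minimum of 10 counts (5.94% of all genes) and 5 under the GC-content offset (11.6%). With the replicate block the line fold changes were -0.34 for Fos (adjusted p = 0.0291, edgeR), -0.58 for Fosb (0.00604) and -0.49 for Atf3 (0.0398). The block alone changed no other count of the 10 genes. It did raise the count of all genes called, from 208 to 847 after PBS, from 103 to 187 after BSA and from 94 to 173 after IgG. For IgG against PBS averaged over lines it called 1 gene, where the main fit called 0. Same-numbered samples of different groups had r over 0.1 in 32 of 45 pairs (mean 0.218, range -0.323 to 0.578). Pairs of different numbers had a mean r of -0.109, which adds no separate evidence. Deviations from the mean of a group of 3 sum to 0, which fixes it near this value once the same-number mean is given. Not all same-number pairs exceeded 0.1, so the samples were taken to share only a number, and the main line test leaves the number out. Still, 16 of 18 samples correlated best with their own number, a hint from the data and not the design.

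In fits that kept all samples, signs changed for Ier3 between the lines (-0.00150 with the minimum of 10 counts, -0.00559 with limma-voom, -0.000169 with the GC-content offset), and, with that offset, for Jund between numbers (from 0.01 to -0.0586) and for BSA against PBS in WT, where 0.36 became -0.00325. Leaving out 1 sample gave 0 to 1 of the 10 between the lines, 517 to 1268 genes (highest without TRIM21 PBS number 14) and 1 to 2 of the 10 between numbers. Log2 ranges that crossed 0 between the lines were -0.205 to 0.175 (Ier3), -0.143 to 0.0730 (Jund), -0.0601 to 0.247 (Junb), -0.00722 to 0.0799 (Jun) and -0.0735 to 0.00360 (Fosl2). Between numbers they were -0.0804 to 0.161 (Atf3), -0.0693 to 0.0231 (Fosl2) and -0.0711 to 0.0548 (Jund). The cause of these changes was not tested. Separately, Fos, Fosb and Atf3 were counted from at most 103 reads per library, and the effect of depth on them was not tested.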
